A study of Mus musculus with 12 samples.

Results

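The comparison described here is between non-growing mouse oocytes with and without Rnaseh1. The KO column, headed Rnaseh1 oo-/- and NGO, was set against the WT column, headed Rnaseh1 fl/fl and NGO, in a table of FPKM values (fragments per kilobase of transcript, scaled to the library) that the authors adjusted to an added spike-in. Genes were taken when their mean over the table's 6 columns was at least 1 FPKM, which gave 10110 of 25162 genes. The mean just reached 1 for Ncbp1 and Rhox10 and just missed it for Nf1 and Pfkfb2. Of the genes compared, 1669 were under 1 FPKM in both NGO columns and entered through later stages, and 82 were listed at 0 in an NGO column, 23 of them in both.

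The study's labels list 12 samples of 10 oocytes each, 2 for each genotype at 3 stages written NGO, GO and FGO, and each sample received 100 pg of ERCC spike-in RNA. The WT oocytes carried floxed Rnaseh1 alleles and the KO oocytes the oocyte deletion. The sources used here do not give the age of the mice, the Cre driver or the deleted exons. The abbreviation NGO is read here as non-growing oocyte. The deposited table had 1 column for each genotype and stage, and whether a column is a mean, a pool or 1 of the 2 samples is not stated. Every NGO difference below is therefore 1 value against 1 value, with no replicate check, no error and no p-value. Library depth is unknown as well, and with it each value's counting error. In pooled oocytes, fewer oocytes of a kind and less RNA per oocyte cannot be told apart.

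RNase H1 cuts RNA that is paired with DNA. These hybrids form as R-loops behind transcribing RNA polymerase and as primers during replication of mitochondrial DNA, and the enzyme works in both the nucleus and mitochondria. Non-growing oocytes of primordial follicles rest in late meiotic prophase, and only after activation do they grow and build the store of maternal RNA that carries the embryo through its first divisions. FOXO3 in the nucleus keeps the oocyte dormant, whereas KIT signalling through PI3K and AKT, and mTORC1, promote activation.

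The oocyte identity of both columns was checked on marker lists. Of 20 oocyte markers, 19 in WT and 20 in KO reached 1 FPKM. The exception was Oog1, which shares reads with near-identical copies as described below. Of 12 markers listed for non-growing oocytes, 11 reached 1 FPKM in both columns, and Stra8, which starts meiosis in fetal germ cells, was listed at 0. Sohlh1, a transcription factor of primordial oocytes, stood at 6.37 FPKM in the WT NGO column, 2.51 at GO and 0 at FGO. Its partner Sohlh2 stood at 9.24, 3.87 and 2.67 FPKM. All other members of that list above 0 were instead higher at GO than at NGO in WT. Lhx8, for example, went from 60.2 to 145 FPKM and Nobox from 80.4 to 191. Genes known for oocyte growth were also abundant at NGO. Zp3, which encodes a zona pellucida protein, measured 2865 FPKM in the WT NGO column against 3980 at GO, and Gdf9, an oocyte-secreted growth factor, 800 against 1610 FPKM.

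Other cell types of the ovary gave little signal in either NGO column. Of 28 granulosa and pregranulosa markers, 0 reached 1 FPKM in WT and 2 did in KO, Inha at 1.31 and Gatm at 1.09 FPKM. The defining marker Foxl2 stood at 0.0347 (WT) and 0.103 FPKM (KO), and Amh at 0.117 and 0.457. The summed level of this list was 5.60 FPKM in WT and 9.36 in KO. The summed levels in WT and KO were 2.60 and 1.57 FPKM for 8 surface epithelium markers, 5.90 and 5.46 for 20 markers of theca, stroma and smooth muscle, 3.73 and 2.09 for 15 immune markers, and 0.742 and 0.477 for 11 endothelial markers. The leukocyte marker Ptprc was listed at 0 in both. Among blood markers only Bpgm, which was also among the 20 most abundant genes of these oocyte columns, exceeded 1 FPKM in both, and haemoglobin Hba-a1 was 2.11 FPKM in WT and 0 in KO. The part of these small shifts in the results was not tested.

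Most genes were slightly lower in KO than in WT as deposited. The median difference of log2(FPKM + 1), KO minus WT, was -0.11, with 7090 genes lower and 2997 higher. The WT NGO column summed to 156840 FPKM and the KO column to 132090. A median-ratio rescaling, which sets the bulk of genes level between columns, was run beside this. With it the median became 0.01, and 4897 genes were lower and 5190 higher. Directions below are therefore given on both scales where they differ. A gene was called when the difference reached 1, which is 2-fold on the scale of FPKM + 1, and a second count used 1.5-fold.

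As deposited, 33 genes fell 2-fold or more in KO, 0.326% of those compared, and 3 rose, 0.0297%. After rescaling 36 fell, 0.356%, and 13 rose, 0.129%. On both scales 23 genes fell and 3 rose. At 1.5-fold, 413 genes fell as deposited, 4.09%, and 33 rose, 0.326%, whereas after rescaling 267 fell, 2.64%, and 173 rose, 1.71%. With a pseudocount of 0.1 in place of 1, 224 genes were 2-fold lower and 48 higher. After the median of 20 transcript-length bins was subtracted, a step chosen after seeing the data, 10 were lower and 5 higher. Many calls lay close to the limit. Kbtbd6 at -1.002 and 2500002B13Rik at -1.004 had just passed it, and Tmem158 and Gm10436, both at -0.996, had just missed it. In all, 9 called genes and 11 uncalled genes were within 0.05 of it.

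**Figure D1:**
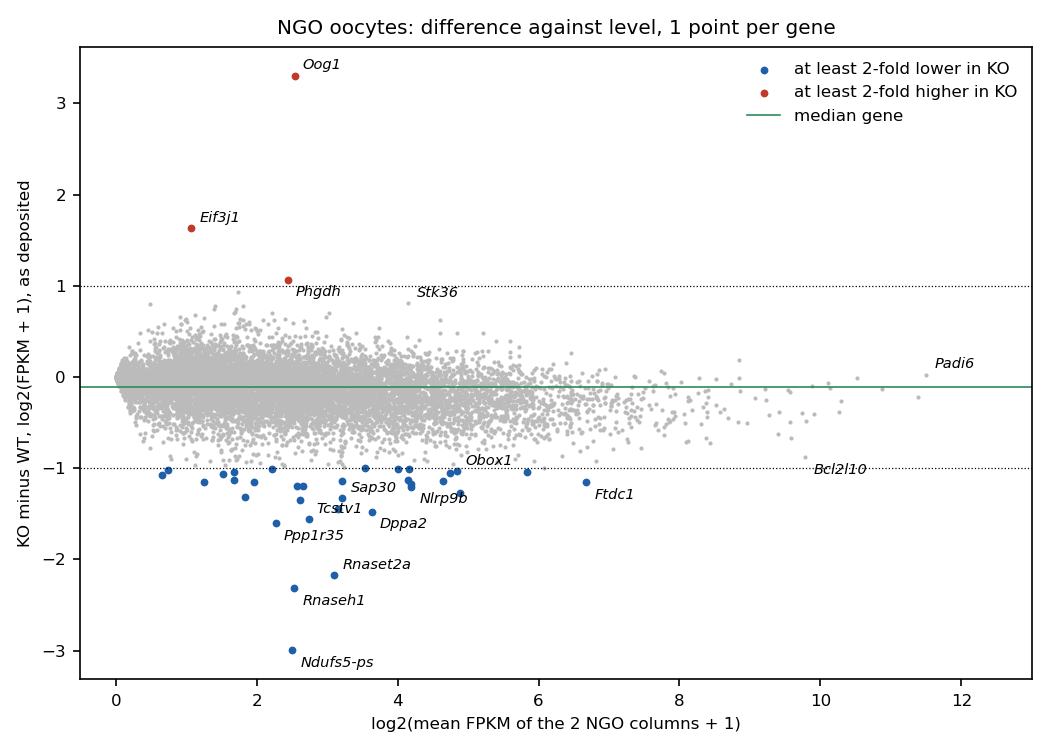
Difference between the KO and WT NGO columns (vertical axis, log2(FPKM + 1), as deposited) against the mean level (horizontal axis, log2 of mean FPKM + 1) for each of 10110 genes. The 33 called lower genes (blue) lie at or below -1, the 3 called higher genes (red) at or above 1 (dotted lines), and the median gene (green line) at -0.11.

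The spread of differences was narrower at NGO than at either later stage. After rescaling, the interquartile range of the difference over all genes measured 0.35 in NGO, 0.56 in GO and 0.55 in FGO columns. A 2-fold difference in either direction was found in 0.485% of genes at NGO, 2.32% at GO and 2.62% at FGO, and a 1.5-fold difference in 4.35%, 16.6% and 15.96%. These ranges are descriptions of 1 pair of columns per stage, and whether they differ beyond the spread between samples was not tested.

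Rnaseh1 itself checked the labels. It lies on chromosome 12 (GRCm38.p6, chr12:28649601-28659592, RefSeq) and measured 8.61 FPKM in the WT NGO column and 0.931 in the KO column. The KO value was 10.8% of the WT value as deposited and 12.3% after rescaling, and the difference of -2.32 was the largest fall among genes with a proper name and at least 5 FPKM. The genes next to it did not show a like fall. Rps7, a ribosomal protein gene, measured 4.72 FPKM (WT) and 6.32 (KO), Adi1 at 1.14 and 1.02, Trappc12 at 4.62 and 4.20, and Eipr1 at 9.39 and 9.57.

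Several of the genes that fell with Rnaseh1 are known from the earliest embryo. Dppa2, which helps switch on embryonic genes at the 2-cell stage, measured 17.2 FPKM in WT and 5.55 in KO, a difference of -1.48 as deposited and -1.38 after rescaling. Dppa4, which encodes its binding partner, was at 1.43 and 0.465 FPKM and passed the 1.5-fold limit. Tcstv1, a gene of the same embryonic wave, fell from 8.95 to 2.38 FPKM, a difference of -1.56 on both scales. Its near-identical copy Gm21818 could share its reads, and its relative Tcstv3 stood at 1.58 (WT) and 1.05 FPKM (KO). Esrrb, an orphan nuclear receptor of pluripotent cells, measured 3.73 FPKM (WT) and 1.47 (KO) and passed the 1.5-fold limit only. Pou5f1, the pluripotency factor OCT4, did not follow, with 49.3 FPKM in WT and 53.9 in KO.

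The oocyte-specific homeobox genes of the Obox cluster on chromosome 7 fell together. Obox1 measured 37.7 FPKM in WT and 17.9 in KO (difference -1.03), Obox2 35.0 and 16.4 (-1.05), and Obox5 82.0 and 51.1 (-0.67). After rescaling the differences were -0.87, -0.89 and -0.50, so that Obox1 and Obox2 no longer reached 2-fold. The transcripts of Obox1 and Obox2 were 98.8% identical, so their separate values are uncertain. The sum over the 5 Obox genes in the table was 155 FPKM in WT and 85.4 in KO. The start regions of the 3 expressed members are shown because they share sequence. Each is the 250 bases before the RefSeq start on the plus strand of GRCm38.p6, at chr7:15547007-15547256 for Obox1, chr7:15388601-15388850 for Obox2 and chr7:15750120-15750369 for Obox5, and capitals mark the 42-base run that is identical in all 3.

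Obox1: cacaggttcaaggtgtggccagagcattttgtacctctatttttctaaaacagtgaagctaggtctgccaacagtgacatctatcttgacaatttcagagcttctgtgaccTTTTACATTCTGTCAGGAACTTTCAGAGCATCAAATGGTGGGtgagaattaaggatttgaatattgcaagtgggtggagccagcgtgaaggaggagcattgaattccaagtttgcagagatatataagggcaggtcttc
Obox2: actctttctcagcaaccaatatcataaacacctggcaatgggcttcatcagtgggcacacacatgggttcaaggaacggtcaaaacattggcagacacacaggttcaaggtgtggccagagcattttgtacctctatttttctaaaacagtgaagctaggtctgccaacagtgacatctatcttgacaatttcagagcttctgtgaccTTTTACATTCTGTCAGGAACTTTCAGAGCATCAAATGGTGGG
Obox5: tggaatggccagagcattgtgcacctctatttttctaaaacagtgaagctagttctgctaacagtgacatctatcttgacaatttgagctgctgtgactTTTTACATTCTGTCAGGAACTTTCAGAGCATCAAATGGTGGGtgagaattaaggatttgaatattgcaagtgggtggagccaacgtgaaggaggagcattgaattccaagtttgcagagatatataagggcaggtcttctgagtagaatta

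The shared run lies 139 to 98 bases before the start in Obox1, 42 to 1 in Obox2 and 151 to 110 in Obox5. Obox1 and Obox2 share a longer run of 153 bases. The TATA word TATATAA, searched on both strands, occurs in the windows of Obox1 and Obox5 and in 1.30% of all 8169 start windows of genes compared. It is a description of the letters and not of a factor's binding.

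Other transcriptional and chromatin regulators were also among the largest falls. Sap30, which helps tether histone deacetylases to SIN3, measured 12.3 FPKM in WT and 4.28 in KO (-1.33). Sebox, a homeobox gene of the oocyte's maternal store, fell from 7.30 to 2.63 FPKM (-1.19), and Bcl7c, a subunit of SWI/SNF remodelling complexes, from 22.8 to 10.8 (-1.01). Bcl7c missed 2-fold after rescaling, at -0.87. Scml2, a Polycomb-associated germline gene, measured 2.30 FPKM (WT) and 0.744 (KO) and was called after rescaling only.

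Falls with other known roles covered RNA and metabolism. Rnaset2a, which encodes the lysosomal ribonuclease T2, measured 13.0 FPKM (WT) and 2.10 (KO), but its copy Rnaset2b is 99.1% identical, and the sum of the pair changed less, from 152 to 96.1 FPKM (-0.65). Trir, a nuclease bound to telomerase RNA, fell from 7.77 to 2.44 FPKM. Upp1, uridine phosphorylase, fell from 7.74 to 2.82 FPKM, and Hpse, heparanase, from 11.8 to 4.77. Ppp1r35, a centriole protein, fell from 6.25 to 1.39 FPKM (-1.60), one of the larger falls after Rnaseh1. Of the inflammasome-type gene Nlrp9b, 24.4 FPKM was measured in WT and 10.1 in KO (-1.20). Its relative Nlrp9c stood at 10.8 and 5.52, and its relative Nlrp9a at 10.5 and 11.3.

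The most abundant of the called genes was Ftdc1, with a ferritin-like domain, at 140 (WT) and 62.5 FPKM (KO) (difference -1.15, and -0.98 after rescaling). The remaining members of the 20 largest falls were Tmem243, from 12.1 to 3.79 FPKM, Rab5if, from 33.5 to 14.7, Kbtbd6, an adaptor of a CUL3 ubiquitin ligase, from 14.6 to 6.77, Tmem158, at 5.13 and 2.07, and Cstb, the protease inhibitor cystatin B, at 11.5 and 5.33. Tmem158 and Cstb lay just under 2-fold. Exons of Tmem243 and Rab5if overlap genes on the opposite strand, and the library did not keep strand, so reads of the neighbours could be counted with them. After rescaling, 12 of the 20 stayed at 2-fold or more. All of the 20 except Rnaset2a and Cstb were higher at GO than at NGO in WT. Upp1 went from 7.74 FPKM at NGO to 222 at GO, Sap30 from 12.3 to 105, and Tmem158 from 5.13 to 9.37. The summed WT column also rose, from 156840 to 384420 FPKM. The part of oocyte stage in these falls was not tested.

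Of the 33 called lower genes, 10 carried no proper name. Copies were sought for the 29 with a reference transcript, and 9 of these had a copy of at least 95% identity. Ndufs5-ps, Ftdc1, Gm29679 and H2ac1 had no such transcript and were not searched. The largest fall of all was in Ndufs5-ps, a pseudogene whose parent makes part of respiratory complex I, from 9.10 to 0.265 FPKM (-3.00), whereas Ndufs5 itself measured 5.73 and 3.98. Rpl34-ps1 fell from 24.2 to 10.2 FPKM while Rpl34, 99.4% identical, stood at 15.9 and 19.3, and their sum at 40.1 and 29.4. Cphx2, a homeobox gene with identical copies, fell from 1.14 to 0.0151 FPKM. The sum over all lines of Cphx1, Cphx2 and Cphx3 was 3.64 FPKM in WT and 2.44 in KO. The sum of the Ndufs5 pair was 15.2 FPKM in WT and 4.56 in KO, a difference of -1.54 that still passed 2-fold, whereas the sums of the Rpl34 and Cphx families did not pass it.

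Few genes rose. Phgdh, which encodes the first enzyme of serine synthesis, measured 2.50 FPKM in WT and 6.35 in KO, a difference of 1.07 as deposited and 1.36 after rescaling. Its reference copies are pseudogenes that the table did not list. Oog1, an oogenesin of the PRAME family, read 0.0670 FPKM in WT and 9.54 in KO, but the sum of Oog1 with its copies Gm2042, Gm10436 and C87977, which are 95.4% to 99.6% identical to it, went the other way, from 359 FPKM in WT to 205 in KO (-0.80, and -0.62 after rescaling). The higher value of Oog1 is thus a value of 1 copy against a lower family. Eif3j1, a subunit of translation initiation factor 3, measured 0.0235 FPKM (WT) and 2.17 (KO), and its paralog Eif3j2 at 4.93 and 2.71. Exons of Eif3j1 overlap other genes on both strands. Eif3j2 moved the other way, and whether values were split between Eif3j1 and Eif3j2 was not tested.

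Most of the 20 largest higher values lay below the 2-fold limit, and a selection with known roles is given here. Stk36, a kinase linked to Hedgehog signalling and cilia, measured 11.9 FPKM in WT and 21.6 in KO, 0.81 as deposited and 1.01 after rescaling, where it was called. Id1, an inhibitor of helix-loop-helix transcription factors, was at 5.20 and 9.08 FPKM (0.70), and its relative Id3 moved the other way, at 135 and 82.1 (-0.71). Llgl1, a cell polarity gene, stood at 5.11 and 8.64 FPKM, and Hdac6, a tubulin deacetylase, at 3.56 and 5.87. Both passed the 1.5-fold limit. Sycp3, a component of the axes of meiotic chromosomes, measured 30.0 FPKM (WT) and 42.3 (KO), and Mael, of the piRNA pathway, at 19.2 and 27.2. Each had a difference of 0.48 as deposited, under 1.5-fold, and 0.67 after rescaling, above it. Of the 20 largest higher values, 2 reached 2-fold as deposited and 3 after rescaling.

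**Figure D2:**
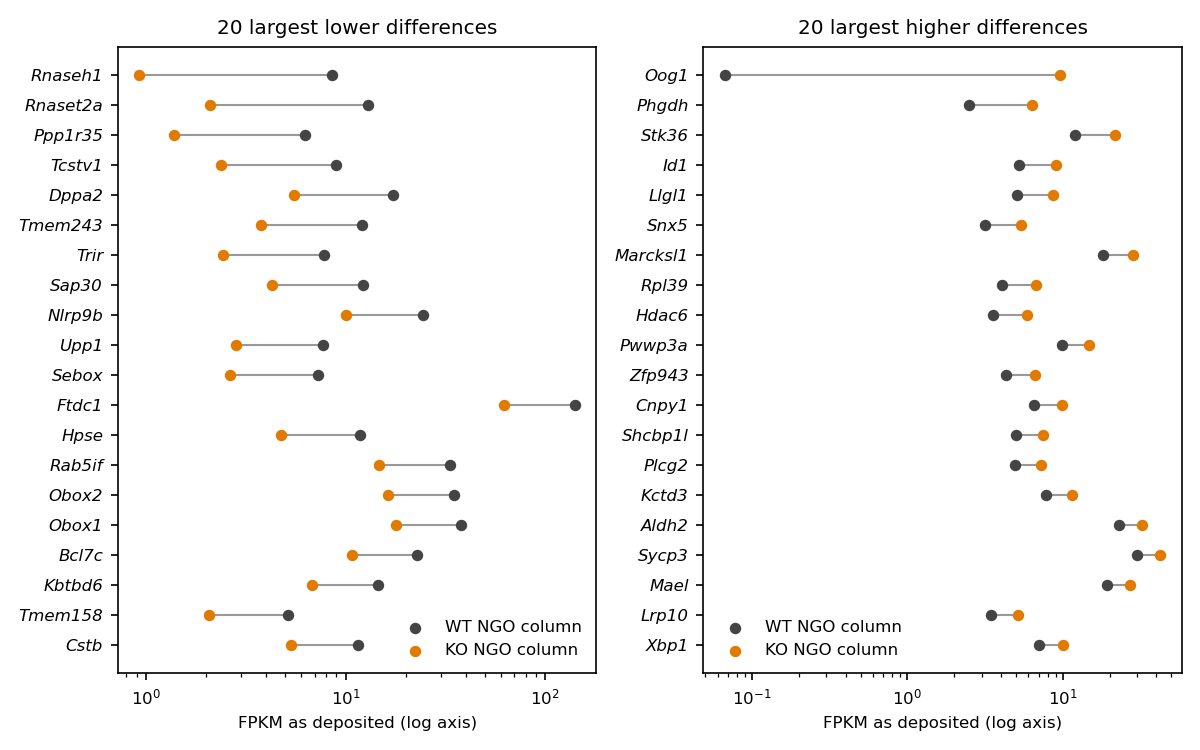
FPKM as deposited (log axis) in the WT and KO NGO columns for the 20 lower and the 20 higher genes of largest difference among properly named genes whose higher column held 5 FPKM or more, 1 dot per column. Rnaseh1 heads the lower genes at 8.61 and 0.931 FPKM, and Phgdh stands at 2.50 and 6.35 FPKM among the higher genes.

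The genes of dormancy and activation were nearly level between the columns. Of 30 genes listed for follicle dormancy and activation, all were compared. As deposited 1 rose and 1 fell by 1.5-fold, beside 0.326% and 4.09% of all genes. The list's median stood at -0.07, or 0.04 once rescaled. Foxo3 measured 1.58 FPKM (WT) and 3.44 (KO) (0.78, and 1.08 after rescaling, where it was called). Lamtor1, a lysosomal anchor of mTORC1, was at 17.2 and 10.3 FPKM, and passed the 1.5-fold limit as deposited only. Kit was at 26.6 and 31.7 FPKM, Akt1 at 9.34 and 10.9, and Rheb, the activator of mTORC1, at 87.3 and 74.9. None of those last 3 reached 1.5-fold.

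The oocyte's transcription factors were also close to level. Of 11 compared, 1 fell by 1.5-fold as deposited, beside 4.09% of all genes. It was the coactivator Sub1, at 21.2 and 13.6 FPKM. Lhx8 was at 60.2 and 59.9 FPKM, Figla at 29.6 and 25.1, Nobox at 80.4 and 65.2, and Sohlh1 at 6.37 and 8.32.

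Secreted and coat proteins were more uneven. Of 16 compared genes, 15 were lower in KO as deposited, beside 7090 of 10110 over all genes. By 1.5-fold 3 fell on both scales, beside 4.09% and, rescaled, 2.64% of all genes, and the median stood at -0.25, or -0.07 once rescaled. Those were Oosp3, from 27.0 to 13.8 FPKM, Oosp1, from 220 to 128, and Fgf8, from 39.5 to 21.9. Oosp1 and Oosp3 encode oocyte-secreted proteins and Fgf8 a growth factor that acts on cumulus cells. The zona genes moved less, with Zp3 at 2865 and 2463 FPKM, Zp2 at 1953 and 1782 and Zp1 at 777 and 703. Bmp15 was at 135 and 94.1 FPKM.

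The subcortical maternal complex is a protein lattice that the embryo needs for its first divisions. It was read in 1 list with other oocyte NLR genes. Of 17 compared genes of that list, 12 were lower in KO as deposited. That share was like the 7090 of 10110 over all genes. The list's median stood at -0.06, or 0.12 once rescaled, and Tle6 likewise changed sign, at -0.01 and 0.17. By 1.5-fold 2 fell, Nlrp9b and Nlrp9c of the related family, or 11.8% beside 4.09% of all genes. The core members Padi6 at 2875 and 2925 FPKM, Nlrp5 at 430 and 490, and Tle6 at 1469 and 1461 differed by less than the 1.5-fold limit. Ooep was lower, at 892 and 631 FPKM, and did not reach it either.

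Among the 20 most abundant genes, none reached 2-fold. They made up 16.03% of the summed FPKM in WT and 15.98% in KO. As deposited 19 of them were lower in KO, and after rescaling 12. The largest difference was in Bcl2l10, an anti-apoptotic BCL2 relative abundant in oocytes, at 1137 (WT) and 617 FPKM (KO) (difference -0.88, and -0.70 after rescaling). Elobl was at 942 and 591 FPKM, and Skp1a, a subunit of SCF ubiquitin ligases, at 818 and 530. Of the 20 compared apoptosis regulators, 1 rose by 1.5-fold, Bid, at 1.29 and 3.38 FPKM, and 1 fell, Bcl2l10. Over all genes 0.326% rose and 4.09% fell by 1.5-fold as deposited. Bid encodes a pro-apoptotic BH3 protein.

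Genes that act on RNA-DNA hybrids lay near the bulk of genes, apart from the targeted gene. Of 44 compared, 2 fell by 1.5-fold as deposited, or 4.55% beside 4.09% of all genes, and none rose. Those that fell were Rnaseh1 and the splicing factor Srsf2, the latter from 35.3 to 17.8 FPKM. The list's median stood at -0.10, or 0.05 once rescaled. The subunits of RNase H2, the other cellular RNase H, were at 1.05 and 1.42 FPKM for Rnaseh2a, 5.58 and 4.46 for Rnaseh2b, and 13.0 and 9.17 for Rnaseh2c. Aqr was at 4.16 and 3.09 FPKM, and the topoisomerase Top1 at 22.0 and 18.5. In the THO and mRNA export list, which packages nascent RNA, 2 of 24 fell by 1.5-fold as deposited, or 8.33%. Those were Alyref at 13.9 and 8.21 FPKM and Nxt1 at 26.9 and 17.4. After rescaling 0 fell, beside 2.64% of all genes.

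DNA repair and checkpoint genes were likewise near the bulk of genes, of which 4.09% fell by 1.5-fold as deposited. Of 51 compared for double-strand break repair, 2 fell by 1.5-fold as deposited, Rpa3, a subunit of the single-strand binding protein RPA, at 25.9 and 13.5 FPKM, and Lig4 at 5.31 and 3.17, and after rescaling 1 did. Of 25 checkpoint and p53 family genes, 0 reached 1.5-fold in either direction. Trp63, the p53 relative that guards non-growing oocytes, was at 5.52 and 5.92 FPKM, Chek2, the kinase upstream of it, at 1.48 and 2.05, and Trp53 at 9.81 and 8.54. Of 31 genes of meiotic prophase, 1 rose, Hormad2 at 1.95 and 3.47 FPKM, and 2 fell, Mnd1 at 35.8 and 23.4 and Ccnb1ip1 at 3.12 and 1.74. After rescaling 0 were lower and 3 higher, Hormad2, Sycp3 and Rad21l, the last at only 0.520 and 1.27 FPKM. Over all genes 0.326% rose by 1.5-fold as deposited, and after rescaling 2.64% fell and 1.71% rose. Of 25 compared germ-cell RNA genes, Tdrd12 fell, from 10.8 to 5.47 FPKM, and after rescaling Mael rose as well.

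Nuclear genes for mitochondria were read in 3 lists, whose difference from each other was not tested. Of 45 genes of mitochondrial DNA replication and transcription, 1 fell by 1.5-fold, the single-strand binding protein Ssbp1 at 8.06 and 4.49 FPKM. The helicase Twnk was at 25.2 and 19.2 FPKM, Tfam at 9.33 and 8.46, and Polrmt at 12.01 and 12.09. Of 81 subunits of oxidative phosphorylation, 58 were lower in KO and 4 fell by 1.5-fold as deposited, shares near those of all genes (7090 of 10110 and 4.09%), with medians of -0.26 and, rescaled, -0.09. Of 75 mitochondrial ribosomal proteins, 65 were lower and 9 fell, against 4.09% of all genes, with medians of -0.36 and -0.21. Mrps33 was at 50.4 and 29.3 FPKM and Mrpl21 at 10.9 and 6.20. After rescaling, 2 of the 75 fell by 1.5-fold and 0 rose, and of the 81 oxidative phosphorylation genes 0 fell and 4 rose. Over all genes 2.64% fell and 1.71% rose on that scale.

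The machinery of gene expression contained other lists below the bulk as deposited. Over all genes 7090 of 10110 were lower as deposited, and 4.09% fell and 0.326% rose by 1.5-fold. After rescaling 2.64% fell and 1.71% rose. Of 81 cytosolic ribosomal proteins, 67 were lower in KO, 4 fell by 1.5-fold and Rpl39 rose, at 4.04 and 6.74 FPKM, with medians of -0.30 and, rescaled, -0.16. After rescaling 1 fell and 2 rose. Of 59 genes for RNA polymerase II and elongation, 6 fell, 10.2% of the list beside 4.09% of all genes, among them Polr2j at 156 and 101 FPKM and Supt4a at 9.46 and 5.51. After rescaling 1 fell and 1 rose. Of 56 spliceosomal genes, 5 fell as deposited, such as Lsm5 at 61.6 and 36.3 FPKM, and after rescaling 0 fell and 2 rose. Of 44 proteasome genes, 3 fell as deposited, and after rescaling 0 fell and 1 rose.

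Short transcripts were lower as a class. In the shortest of 5 equal bins of genes by transcript length, 174 to 1656 nucleotides, the rescaled median was -0.15, against 0.01, 0.04, 0.06 and 0.05 in the longer bins. Among the lists above, the median transcript length was 914 nucleotides for the cytosolic ribosomal proteins, 875 for oxidative phosphorylation and 1288 for the mitochondrial ribosomal proteins. When the median of 20 length bins was subtracted, the list medians became -0.02, 0.03 and -0.11. The part of transcript length in these differences was not otherwise tested.

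Histone genes had a median as low as that of the mitochondrial ribosomal proteins. Of 26 compared, 23 were lower in KO and 6 fell by 1.5-fold, 23.1% of the list, beside 7090 of 10110 lower and 4.09% fallen over all genes. The medians were -0.36 and, rescaled, -0.26, but 0 when all 86 histone genes of the table were taken without the filter on low values. H2ac1 fell from 3.29 to 1.08 FPKM (-1.04), and H1f1 was at 2.86 and 0.971 (-0.97). The abundant oocyte linker histone H1f8 was at 970 and 737 FPKM and H3f3b, which encodes variant H3.3, at 195 and 140, both under 1.5-fold. The list includes 8 genes under 1 FPKM in both NGO columns. Most canonical histone messages lack a poly(A) tail, and the library was primed on poly(A), so a low value is not the full level of the message.

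Chromatin regulators fell by 1.5-fold as deposited at shares near the 4.09% of all genes. The shares were 4.26% for H3K4, H3K36 and silencing chromatin, 6.45% for Polycomb and 5.26% for DNA methylation and imprinting. Over all genes 0.326% rose as deposited, and after rescaling 2.64% fell and 1.71% rose. Of 47 compared genes of H3K4, H3K36 and silencing chromatin, 2 fell by 1.5-fold, Sap30 and Dpy30, a subunit of H3K4 methyltransferases, at 60.7 and 37.7 FPKM, and Hdac6 rose. After rescaling 1 fell, Sap30, and 2 rose, Hdac6 and Kdm5b. Of 31 Polycomb genes, 2 fell as deposited, Scml2 and Pcgf1, the latter at 56.8 and 37.3 FPKM. After rescaling Scml2 alone fell and Cbx7 rose. Of 19 genes of DNA methylation and imprinting, Tet3, which oxidizes methylcytosine in the zygote, fell, at 26.5 and 16.8 FPKM, and Dnmt1 was at 264 and 255. Tet3 did not pass the limit after rescaling.

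Genes known for storing and clearing maternal RNA gave some falls. Of 34 storage genes, 3 fell by 1.5-fold as deposited, beside 4.09% of all genes, including Ybx1, a cold-shock domain RNA-binding protein, at 47.1 and 26.9 FPKM and Zar1l at 19.8 and 11.98. Its relative Zar1 was at 445 and 348 FPKM, under the limit. After rescaling Ybx1 alone fell and Mael rose, beside 2.64% and 1.71% of all genes. Of 52 decay genes, 3 fell as deposited and 1 after rescaling. Exosc6 of the RNA exosome was at 3.34 and 1.39 FPKM. Of 44 genes of meiotic arrest and Cdk1 control, Cdc25b, a phosphatase that activates CDK1, rose, at 2.73 and 4.76 FPKM, and Arpp19 fell, at 13.5 and 8.38. After rescaling Cdc25b alone passed.

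The list of genes of the early embryo had the largest share of falls among the 34 lists as deposited. Of 46 listed, 19 were compared, 6 of these under 1 FPKM in both NGO columns. Of the 19, 7 fell by 1.5-fold, 36.8% against 4.09% of all genes, and 1 rose. The risen gene was Cphx1, 1 of the identical copies described above. The list's median at NGO stood at -0.33, or -0.18 once rescaled, and at GO, rescaled, at -0.55. It was -0.01 at NGO over 42 genes without the filter on low values and 0.00 after the length-bin medians were subtracted. After rescaling 6 of the 19 fell, beside 2.64% of all genes. The list was chosen with these data known, and Obox1 and Obox2 count separately in it although they share reads. Of 31 compared genes of the duplicated oogenesin, Oas1 and oocyte Fbxw families, 29 were lower in KO as deposited, beside 7090 of 10110 over all genes. By 1.5-fold 5 fell, or 3 after rescaling, beside 4.09% and 2.64% of all genes. Oog1 rose on both scales. The median of these families stood at -0.28, or -0.16 once rescaled. Oog4 was at 19.6 and 10.4 FPKM and Fbxw20 at 168 and 96.4.

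Stress, sensing and metabolic lists had shares of 1.5-fold falls from 0% in serine synthesis to 6.67% in the unfolded protein list. Over all genes 4.09% fell and 0.326% rose by 1.5-fold as deposited, and after rescaling 2.64% fell and 1.71% rose. In the 21 compared genes of serine synthesis and one-carbon metabolism only Phgdh passed 1.5-fold. The later steps of that route were at 0.625 and 0.787 FPKM for Psph and 15.5 and 12.3 for Shmt2. Of 30 genes of the unfolded protein and amino acid stress responses, 2 fell, the kinase Eif2ak3 at 2.48 and 1.24 FPKM and Ddit3 at 14.2 and 8.93. After rescaling Ddit3 no longer passed and Gdf15 did, at 0.441 FPKM in WT and listed at 0 in KO. Hspa5, the main ER chaperone, was at 58.0 and 55.1 FPKM, Atf4 at 50.8 and 36.8, and Xbp1 at 6.99 and 9.98, which passed 1.5-fold after rescaling only. Of 36 heat shock genes, Hspb1 fell, at 8.15 and 4.09 FPKM. Of 17 compared genes of nucleic acid sensing and interferon, Bst2 alone fell, at 17.9 and 11.2 FPKM as deposited and not after rescaling, and 0 rose. Of 34 aminoacyl-tRNA synthetase genes, 1 fell as deposited, 0 fell after rescaling and 0 rose. Of 52 translation initiation genes, 1 rose, Eif3j1, and 2 fell, Eif3j2 and Eif2ak3, and after rescaling Eif3k rose as well.

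**Figure D3:**
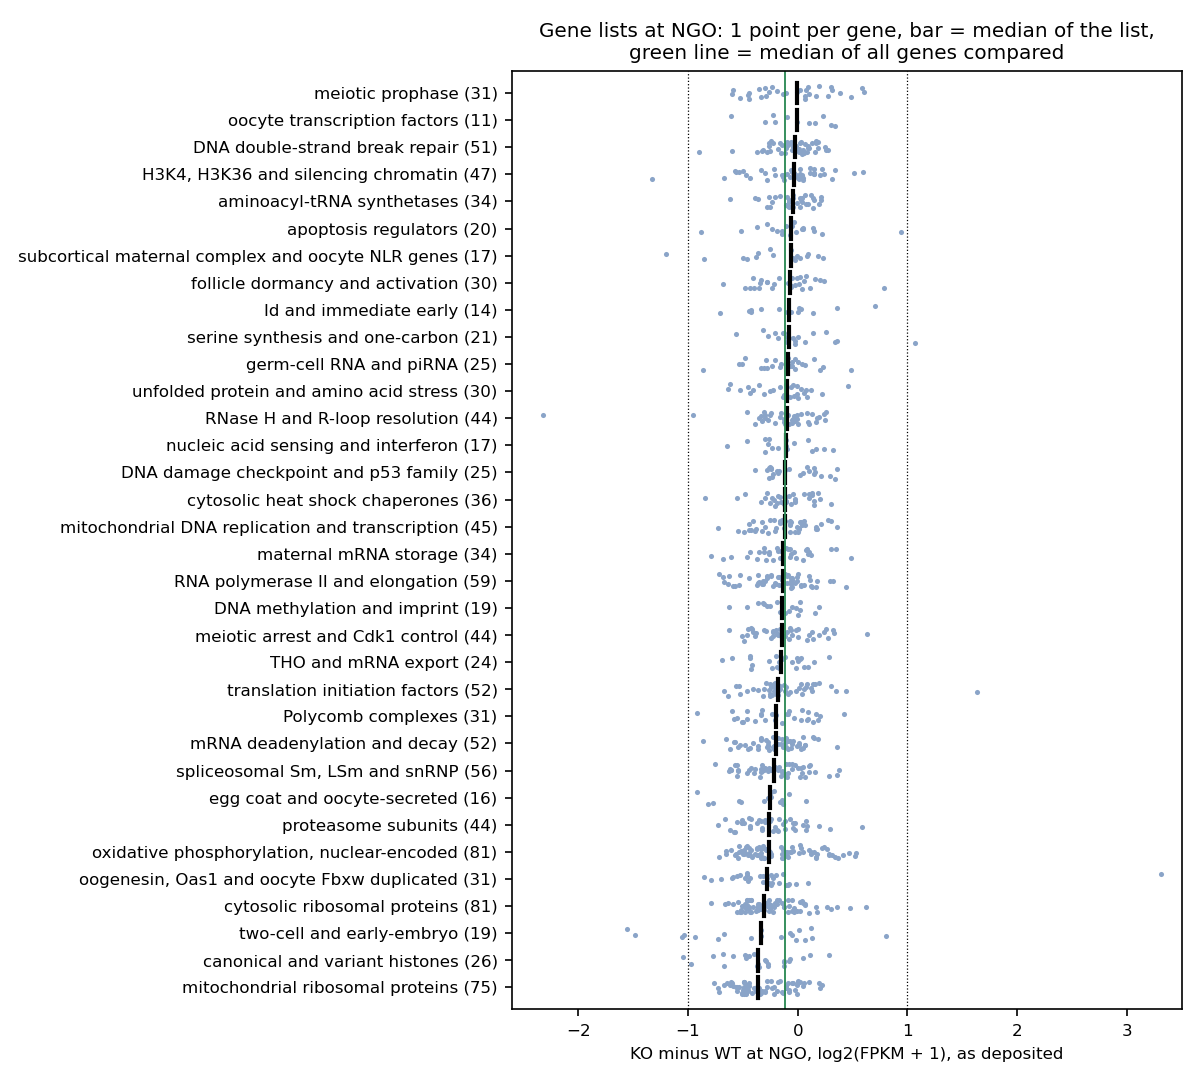
Differences between the KO and WT NGO columns (horizontal axis, log2(FPKM + 1), as deposited) of every compared member of 34 gene lists (vertical axis, number compared in parentheses), with the list median as a black bar. Medians run from -0.36 for mitochondrial ribosomal proteins and histones to -0.01 for meiotic prophase, beside -0.11 for all genes (green line), and vertical placement within a row has no meaning.

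The genes that differed at NGO were then read at the later stages. The differences there come from other columns than the NGO difference, although all 6 columns set which genes were compared. Of the 33 called lower genes, 31 were lower in KO at GO and 21 at FGO after rescaling. At GO, 8 of them were 2-fold lower. Of the 413 genes lower by 1.5-fold, 92.5% were below 0 at GO and 73.6% at FGO, beside 52.8% and 47.9% of all genes. Of the 267 that were 1.5-fold lower after rescaling, 88.8% and 61.4% were. Of the 173 genes that were 1.5-fold higher after rescaling, 75.7% were above 0 at GO and 76.9% at FGO, beside 47.2% and 52.1% of all genes. Across all 10110 genes, the rescaled NGO difference correlated with that at GO with Pearson r = 0.44 and Spearman rho = 0.47, and with that at FGO with r = 0.28 and rho = 0.32. Genes are not independent replicates and share their transcript length across stages, so these are descriptions. Within 5 bins of transcript length r was 0.35 to 0.47 for GO and 0.10 to 0.33 for FGO.

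Single genes took different courses. Rnaseh1 stayed low, with rescaled differences of -2.54 at NGO, -2.67 at GO and -2.35 at FGO. Tcstv1 also stayed low, at -1.56, -1.10 and -1.07. Its WT level was 8.95 FPKM at NGO, 109 at GO and 147 at FGO, against 2.38, 47.8 and 120 in KO. Dppa2 was low only at NGO among the 3 stages, with -1.38, 0.08 and 0.27, its levels being 17.2, 102 and 109 FPKM in WT and 5.55, 102 and 228 in KO. Nlrp9b likewise read -1.06, 0.05 and 0.22. Sap30 read -1.25, -0.98 and 0.17. Phgdh was higher at NGO, 1.36, and near 0 at GO, 0.02. Whether these courses differ beyond the spread between samples was not tested.

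**Figure D4:**
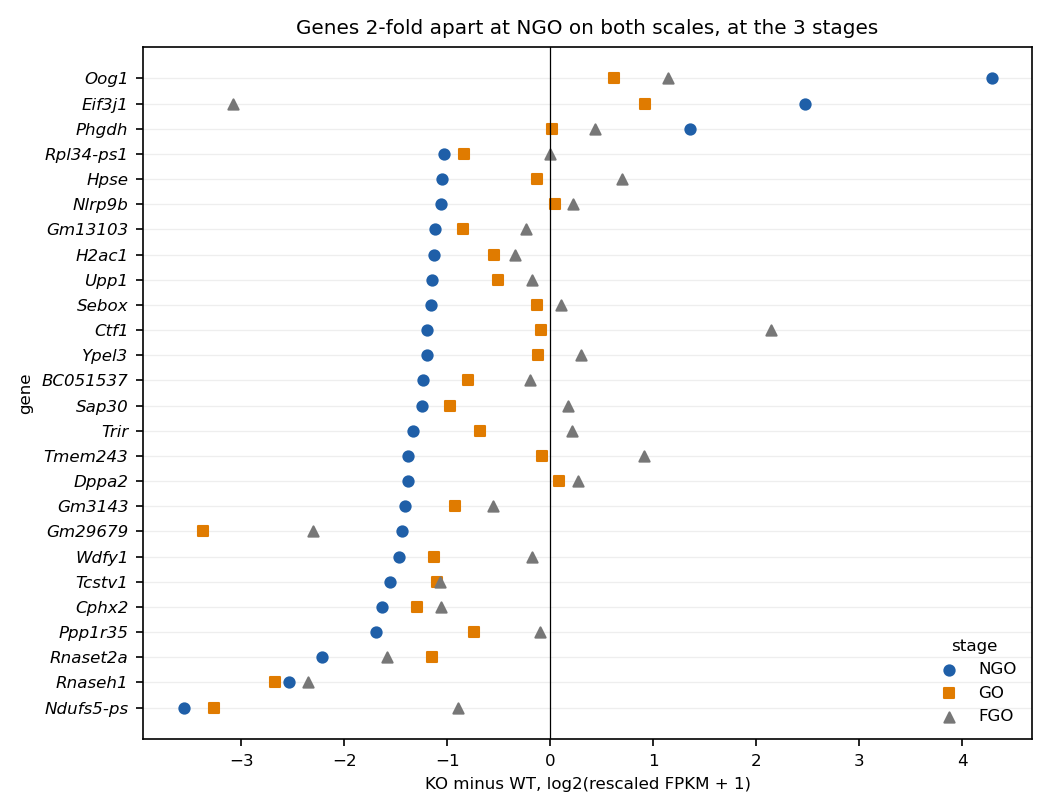
KO minus WT difference (horizontal axis, log2(rescaled FPKM + 1)) at NGO, GO and FGO for the 26 genes that were 2-fold apart at NGO on both scales (vertical axis). Most blue NGO points left of 0 have an orange GO point also left of 0 and closer to it, and the grey FGO points lie on both sides.

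Gene structure was related to the NGO difference. Of the genes that were 1.5-fold lower after rescaling and had a length, 121 fell into the shortest length bin and 8 into the longest. The 33 called lower genes had a median transcript length of 1459 nucleotides in the 29 with a value, against 2965 over all genes. By exon number, the rescaled median ran from -0.10 in genes of 1 to 4 exons to 0.09 in genes of 17 or more. The shortest transcripts were also the lowest bin at GO, -0.25, and at FGO, -0.17. Start windows of 300 bases matched 80.8% of genes compared. In the bin with the fewest CpG dinucleotides, 86 genes were 1.5-fold lower after rescaling, against 22 to 34 in the other 4 bins. GC skew of the start window, a feature linked to R-loops, had bin medians from 0.00 to 0.02. By the same count, 28, 39, 46, 36 and 47 genes were 1.5-fold lower, from the lowest to the highest skew bin. The window reaches only 50 bases past the start, so skew further into the gene was not read. Length, exon number and CpG number vary together across genes, and their separate parts were not tested.

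**Figure D5:**
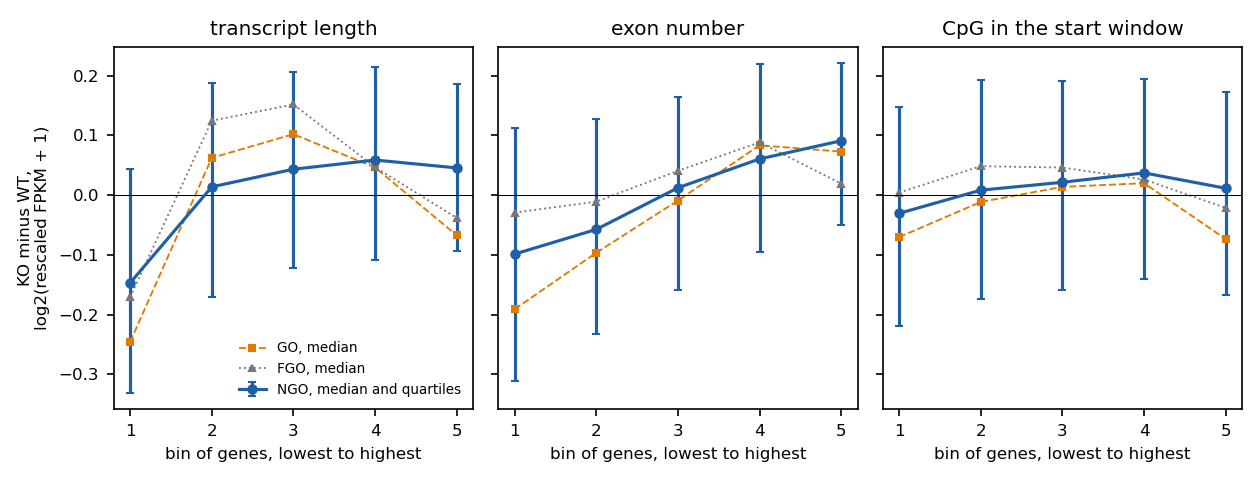
Median KO minus WT difference (vertical axis, log2(rescaled FPKM + 1)) in 5 bins of genes (horizontal axis, lowest to highest) of transcript length, exon number and CpG number of the start window, with quartiles for NGO as error bars. At NGO the shortest transcripts sit at -0.15 and genes with the fewest exons at -0.10, below the other bins.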

How the data were processed

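RNA of pools of 10 oocytes was measured by Smart-seq2. The submitters' processing notes name the build mm10 and the tools HISAT2 2.2.1, Trim Galore 0.6.7 and Cufflinks 2.2.1. Going by the table's name, the deposited FPKM were adjusted by the authors to the ERCC spike-in. The sources used here state neither the formula nor the gene annotation or library depth.

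Its 25912 lines held 25164 symbols. The 2 lines with error marks were dropped, and 333 symbols on several lines were each represented by the line of largest mean. Differences were computed on log2(FPKM + 1), a scale that understates the change of low genes, as deposited and after median-ratio rescaling (factors 0.514 for WT and 0.453 for KO at NGO). With 1 column per group, the linear model and leaving out replicates that were planned for single samples could not be used. The members, gene lists and naming rule were chosen with earlier results of these data known. The rule names Rnaseh1, the 20 genes with the largest higher and the 20 with the largest lower difference that have a proper name and at least 5 FPKM in the higher NGO column, the 20 most abundant genes, per list up to 5 members by rescaled difference and 4 by level, markers at 1 FPKM or more, and copies. List counts cover all compared members. Some genes outside the rule were named after their values were seen, among them neighbours of Rnaseh1, called genes without a proper name and members of pathways such as Aqr and Twnk.

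Transcript lengths, exons, exon overlaps and copies (blastn 2.17.0, at least 95% identity over 50% of the transcript) came from GENCODE M21. Coordinates and start windows (250 bases before and 50 after the start) came from RefSeq on GRCm38.p6. Motifs were searched in the 250 bases. Software was Python 3.11.15, pandas 2.3.3 and numpy 2.4.6. On simulated data the rescaling and the call were tested and called what was set. The set changes were far above 2-fold, with starting levels raised to about 1 FPKM or more, little noise and no pseudocount. Calls near the limit, calls of low genes and calls as deposited were therefore not tested by it. Alternatives were another pseudocount, other filters, other scalings and, chosen after seeing the data, subtraction of the median of 20 transcript-length bins.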

Additional observations from a re-analysis of the deposited data

Results flagged for a closer look

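Ctf1, which encodes the cytokine cardiotrophin 1, differed between stages in the direction of its KO minus WT value. The NGO columns read 4.40 FPKM in WT and 1.43 in KO, and the FGO columns 0.695 and 13.0. The rescaled difference measured -1.20 in NGO, -0.09 in GO and 2.14 in FGO columns, and the step from NGO to FGO was 4.198 as deposited. Ctf1 overlaps exons of Ctf2 on the opposite strand, and the library did not keep strand. The difference between stages was not tested.

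Eif3j1 took the opposite course, from 0.0235 FPKM in WT and 2.17 in KO at NGO to 10.2 and 0.098 at FGO. Its KO minus WT difference at FGO minus that at NGO was -4.983 as deposited. This difference was not tested either, and the gene shares exon sequence with Gm47314 and Spg11. Its paralog Eif3j2 moved the other way at both stages. Eif3j2 was at 4.93 (WT) and 2.71 FPKM (KO) at NGO and at 8.01 and 34.4 at FGO. Whether values were split between the 2 genes was not tested.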

How the results depend on the processing

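Rnaseh1 remained at 10.8% to 12.8% of its WT value under every alternative that gave a value. The other counts depended on the scale. Median-ratio rescaling gave 13 genes 2-fold higher, 173 genes 1.5-fold higher, 267 genes 1.5-fold lower and a median difference of 0.01 (0.009457), in place of 3, 33, 413 and -0.11. Equal column totals gave 25, 307 and 246 genes and a median of 0.06 (0.06365). A pseudocount of 0.1 gave 48 genes 2-fold higher and 224 lower, and 222 and 1045 at 1.5-fold. No filter on low values moved the median to 0, and a mean of at least 5 FPKM moved it to -0.17 (-0.1685), with 14 genes 1.5-fold higher. Subtracting the median of transcript-length bins, chosen after seeing the data, left 5 genes 2-fold higher and 10 lower, and 100 and 119 at 1.5-fold, with a median of 0. The cause was not tested. Of 56 genes named by difference or call, 45 kept their side of the 2-fold limit after rescaling, 10 lost it and 1 passed it, and 0 reversed under any alternative run. Medians of 34 of the 37 lists moved by rescaling.

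No paired analysis was possible because each group had 1 column and the columns carry no replicate number, and leaving out a replicate was not possible for the same reason. A single column per group and an unknown depth limit every value here, most of all for genes near 1 FPKM.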

Other observations

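Genes called only after rescaling were mostly of low level. Among those higher in KO were Ankrd42 at 1.44 (WT) and 3.11 FPKM (KO), Wdr46 at 1.44 and 3.02, and Zfp623 at 0.971 and 2.31. Among those lower were Zfp69 at 1.89 and 0.480 FPKM, Sirt5, a mitochondrial deacylase, at 1.86 and 0.569, and Cebpb at 1.23 and 0.201. Dcn, a stromal proteoglycan gene, was at 1.60 and 0.393 FPKM.

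Called genes without a proper name that fell included Gm13103, at 40.7 (WT) and 16.2 FPKM (KO), and Gm13023, at 75.7 and 36.2. Both have near-identical copies, and Gm13023 is close in sequence to Oog1. The word TAATTG, searched on both strands, was found in the start windows of 4 of the 22 called lower genes that have one, BC051537, Gm3143, H2ac1 and Nlrp9b, beside 4.69% of all windows, and in 19 of 323 windows of the 1.5-fold lower genes, 5.88%. TAATTA was found in 0 of the 22, beside 2.63% of all windows. These are descriptions chosen with the called genes known.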
